A study of Homo sapiens with 6 samples.

Results

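Genes of DNA damage signalling and repair were examined in OCI-AML3, a human acute myeloid leukaemia cell line that carries an NPM1 mutation, after treatment with Vorinostat (SAHA), an inhibitor of histone deacetylases. The members were a list of 46 genes set for this purpose, of which 45 could be read, among 19775 genes with a probe set annotated to that gene alone. RBBP8 had no such probe set and was not analysed here. Where a gene had several probe sets, the one with the highest average stood for it. RNA came from 3 samples given DMSO, the solvent, and 3 samples given 1 μM Vorinostat, all for 24 h, and the samples of each group carried the replicate numbers 1, 2 and 3. OCI-AML3 is 1 cell line and all samples came from it. Whether the samples were separate cultures is not given in the sources used here, and the p-values capture sample-to-sample spread alone, possibly of technical origin.

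DNA breaks are sensed by kinases such as ATM and ATR, which activate the checkpoint kinases CHEK2 and CHEK1 and recruit scaffold proteins to the damaged chromatin. Double-strand breaks are repaired by homologous recombination, which copies the sister chromatid and is used in S and G2 phase, or by end joining, which ligates the ends at any stage of the cycle. Damaged or mismatched bases are removed by base excision, nucleotide excision and mismatch repair, and crosslinks are handled by the Fanconi anaemia pathway. Many recombination genes are transcribed mainly in S phase under E2F factors, whereas the Ku proteins and the abundant base excision enzymes are made throughout the cycle.

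The arrays differed widely in signal. On the number 1 arrays 8645 (DMSO) and 8158 (Vorinostat) probe sets lay above a log2 value of 3, against 2761 to 3731 on the other 4 arrays. Number 2 had 3731 with DMSO and 2769 with Vorinostat, and number 3 had 2761 with DMSO and 3274 with Vorinostat. Of the members, 32 reached 3 on the DMSO number 1 array and 26 on the Vorinostat number 1 array, against 7 to 10 on each of the others. A difference in numbers 2 and 3 was therefore poorly measured for most members, and 9 of the 45 reached 3 on no array. Housekeeping genes, 11 measured of 14 listed, had median differences (Vorinostat minus DMSO) of 0.02, -1.70 and -0.24 in numbers 1, 2 and 3. Of 8 measured myeloid markers, CEBPA, ELANE, LYZ and PTPRC reached 3 on at least 3 arrays, while MPO, ANPEP and SPI1 lay below 3 on all 6. The mean log2 level of the myeloid list lay between 2.52 and 5.36 over the arrays, and that of the lists for T and NK, B, erythroid, epithelial, fibroblast and endothelial cells between 1.48 and 2.67.

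Most recombination genes, and some genes of other roles, had lower values with Vorinostat in number 1, the pair of arrays with the high signal. BRIP1, BRCA1, BARD1, MDC1, RAD51AP1, XPC, NBN and UNG were each lower there by over 2 log2 units. In number 2, XRCC5, PARP1, APEX1, XRCC6, RAD51C, PRKDC, BRCA1, UNG and BARD1 were over 2-fold lower, and in number 3 no member was over 2-fold lower. No member passed an adjusted p under 0.05 (Benjamini-Hochberg over 54613 probe sets), the lowest adjusted p from limma being 1, and 0% of all genes passed it. At an unadjusted p under 0.05 from limma, 1 of the 45 members was lower, against 0.389% of all genes, and 0 were higher, against 0.602%. That member was XRCC3, and without both arrays of number 2, or both of number 3, no member passed. None passed the study's threshold of over 2-fold with an unadjusted p under 0.05, which 0.0506% of genes passed as lower and 0.0455% as higher. Of the 45 log2 fold changes 31 were negative, against 53.1% of all genes, with a median of -0.27 against -0.02 over all genes. Most genes have low signal. Over those whose number 1 arrays averaged at least 3, the median was -0.55 for 32 members and -0.2 for 5365 genes. Without DMSO replicate 1, which leaves the high-signal Vorinostat number 1 array without its partner, the median over the 45 members was 0.32. Without both number 1 arrays it was -0.12. In bulk RNA, fewer cells that hold a transcript and less transcript per cell cannot be told apart.

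Same-numbered arrays deviated together, with correlations of 0.874, 0.599 and 0.672 in numbers 1, 2 and 3. Crossed arrays of numbers 2 and 3 correlated about as much (0.695 and 0.594), so their pairing rests on the labels. Differences were also read within each number. The median over members was -0.54, -0.27 and 0.06 in numbers 1, 2 and 3, against -0.01, -0.04 and 0.03 over all genes. Over those whose number 1 arrays averaged at least 3, it was -0.90, -0.38 and 0.08 for 32 members against -0.21, -0.42 and 0.13 for 5365 genes, so in number 2 their median was no lower than that of all genes of such signal. In each number the members were lower in 35, 30 and 19 of 45 cases, against 51%, 55.8% and 45.3% of all genes. Lower values in each of the 3 numbers were held by 10 members, against 13.7% of all genes, and these were BARD1, BRIP1, NBN, BLM, WRN, XRCC3, XRCC5, FANCL, MSH6 and UNG. Only RAD52 was higher in each number, against 13% of all genes. With the replicate number as a block in limma, 5 members (WRN, XRCC3, FANCL, MSH6 and UNG) were lower at an unadjusted p under 0.05, against 3.12% of all genes, and 0 were higher, against 2.25%. UNG alone of the 45 was over 2-fold lower and also had such a p with the block, against 0.632% of all genes. None passed an adjusted p under 0.05 with the block, nor did any gene (0%), and the lowest adjusted p of a member was 0.887.

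**Figure D1:**
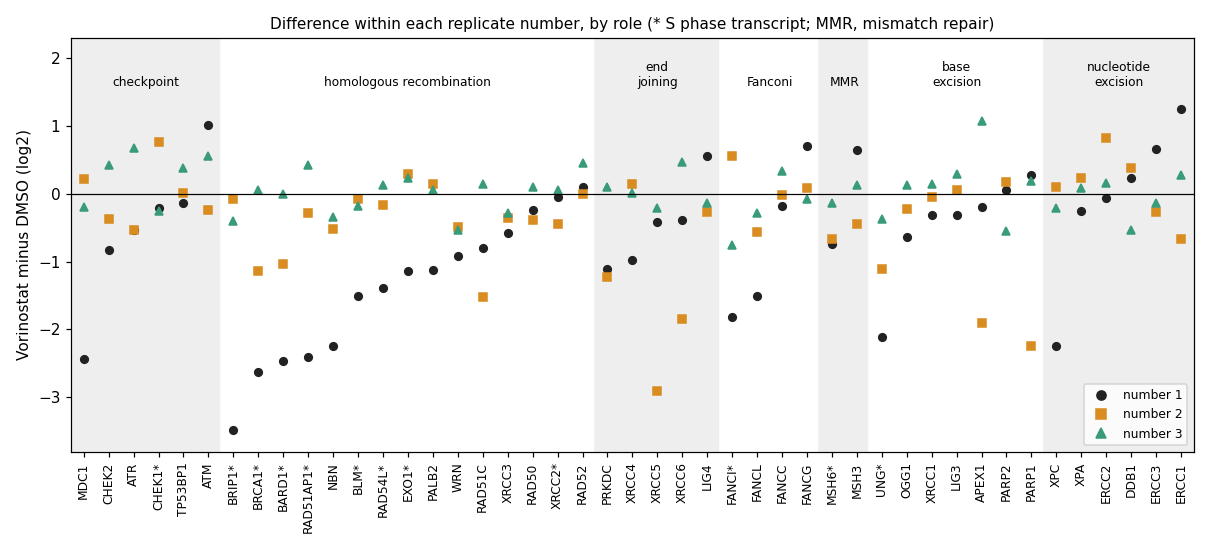
Difference of Vorinostat minus DMSO in log2 units (vertical axis) for each of the 45 measured members, grouped by role, with 1 point for each replicate number and an asterisk on genes listed as S phase transcripts. Recombination genes reach -3.48 in number 1, XRCC5 reaches -2.90 in number 2, and number 3 stays between -0.75 and 1.08.

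In number 1, 15 of the 45 members were over 2-fold lower and 2 were over 2-fold higher, against 5.56% and 3.07% of all genes. Most genes have low signal, so the same was counted over genes whose number 1 arrays averaged at least 3. Of the 32 such members, 15 were over 2-fold lower, against 17.4% of the 5365 such genes, and 2 were higher (ATM and ERCC1), against 8.87%. In number 2, 9 members were over 2-fold lower and 0 higher, against 7.58% and 1.85% of all genes. In number 3, 0 were over 2-fold lower and 1 (APEX1) was higher, against 1.37% and 3.38%. These counts rest on 1 array against 1 array, so they have no replicate check.

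Members listed as S phase transcripts from textbook knowledge made up 9 of the 15 genes over 2-fold lower in number 1. The 12 genes so listed were BRCA1, BARD1, BRIP1, RAD51AP1, RAD54L, BLM, EXO1, CHEK1, FANCI, UNG, MSH6 and XRCC2. In number 1, 9 of the 12 were over 2-fold lower, with a median difference of -1.66. Of the other 33 members 6 were, with a median of -0.31, and the share of all genes was 5.56%. In numbers 2 and 3 the medians were -0.23 and -0.07 for the S phase transcripts and -0.27 and 0.10 for the others. Their log2 fold changes over all arrays were negative in 11 of 12 and in 20 of 33, against 53.1% of all genes. Among members whose number 1 arrays averaged at least 3, 9 of 10 S phase transcripts and 6 of 22 others were over 2-fold lower there. Of all genes of such signal 17.4% were. The list of S phase transcripts was set with earlier results of these data known, so the contrast is a description. The difference between these groups of members was not tested, and neither was the part of cell cycle position.

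Checkpoint and damage signalling genes differed among themselves, with a median log2 fold change of -0.02 over 6 genes. MDC1, a scaffold that binds phosphorylated H2AX beside breaks, had log2 values of 6.80, 3.19 and 3.64 with DMSO and 4.37, 3.40 and 3.44 with Vorinostat. The DMSO number 1 array stood above the other 5, and the groups overlapped. The log2 fold change came to -0.80 (limma, standard error 1.02), with differences of -2.43, 0.22 and -0.19 in numbers 1, 2 and 3.

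ATM, the kinase activated by double-strand breaks, had log2 values of 2.73, 2.72 and 2.23 with DMSO and 3.76, 2.48 and 2.78 with Vorinostat. The Vorinostat number 1 array was the highest, and the log2 fold change was 0.45. Another ATM probe set had the opposite sign in number 1, with differences of -1.05, -0.01 and -0.07. ATR, the kinase activated by single-stranded DNA at stalled forks, differed by -0.54, -0.53 and 0.67 in numbers 1, 2 and 3. CHEK2, the effector kinase of ATM, differed by -0.83, -0.37 and 0.43. TP53BP1, which favours end joining over resection, differed by -0.13, 0.01 and 0.38. For CHEK1, the effector kinase of ATR, the probe set mattered. The one with the highest mean differed by -0.21, 0.77 and -0.25, and another with more signal in number 1 differed by -2.08, -0.37 and 0.22. ATR likewise had a second probe set with differences of -1.30, -0.40 and -1.25.

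Homologous recombination genes had a median difference of -1.14 in number 1, -0.36 in number 2 and 0.05 in number 3 over 15 genes. BRCA1 and BARD1 form the ubiquitin ligase that promotes end resection and strand exchange. BRCA1 had log2 values of 5.16, 2.77 and 1.43 with DMSO and 2.53, 1.62 and 1.50 with Vorinostat, with means of 3.12 ± 1.89 (SD, n = 3) in the DMSO group and 1.88 ± 0.56 (SD, n = 3) in the Vorinostat group. BARD1 had 5.47, 2.87 and 2.19 with DMSO and 3.01, 1.84 and 2.18 with Vorinostat, with means of 3.51 ± 1.73 (SD, n = 3) in the DMSO group and 2.34 ± 0.60 (SD, n = 3) in the Vorinostat group. In both genes the DMSO arrays of numbers 1 and 2 were above their Vorinostat partners and number 3 was level. Their log2 fold changes were -1.23 (limma, standard error 0.98) for BRCA1 and -1.17 (limma, standard error 0.913) for BARD1. The other BRCA1 probe set differed by -1.53, -0.32 and -0.07. Dimmer BARD1 probe sets differed by -0.61, 0.08 and -0.18 and by -0.19, -0.29 and 0.14, all under 2-fold.

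BRIP1, a helicase that binds BRCA1, had log2 values of 5.93, 1.76 and 1.78 with DMSO and 2.45, 1.69 and 1.38 with Vorinostat. Its difference lay almost wholly in number 1, and on the other 4 arrays it did not exceed 1.78. The log2 fold change came to -1.32 (limma, standard error 1.23). NBN, a subunit of the complex that binds and trims broken ends, had log2 values of 6.04, 2.73 and 2.39 with DMSO and 3.80, 2.21 and 2.05 with Vorinostat. It was lower in each number, with differences of -2.24, -0.52 and -0.34, and another of its probe sets differed by -1.54, -0.34 and -0.15. RAD50, the partner of NBN in that complex, had log2 values of 4.45, 2.57 and 2.17 with DMSO and 4.20, 2.19 and 2.27 with Vorinostat, and its differences of -0.24, -0.38 and 0.10 stayed under 2-fold.

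RAD51AP1, which stimulates strand pairing by the recombinase, had log2 values of 6.26, 1.87 and 1.58 with DMSO and 3.85, 1.57 and 2.01 with Vorinostat. The number 1 arrays alone were above 3, and the difference there was -2.41. RAD51C, a paralogue of the recombinase, had log2 values of 5.85, 4.20 and 3.18 with DMSO and 5.05, 2.67 and 3.32 with Vorinostat, with its larger difference in number 2. A second RAD51C probe set differed by -0.33, -0.68 and -0.05, all under 2-fold. BLM, the helicase that dissolves recombination intermediates, had log2 values of 7.12, 4.57 and 4.33 with DMSO and 5.61, 4.50 and 4.16 with Vorinostat. It was the only measured recombination gene with all 6 arrays above 3, and its differences of -1.51, -0.07 and -0.18 were small outside number 1.

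**Figure D2:**
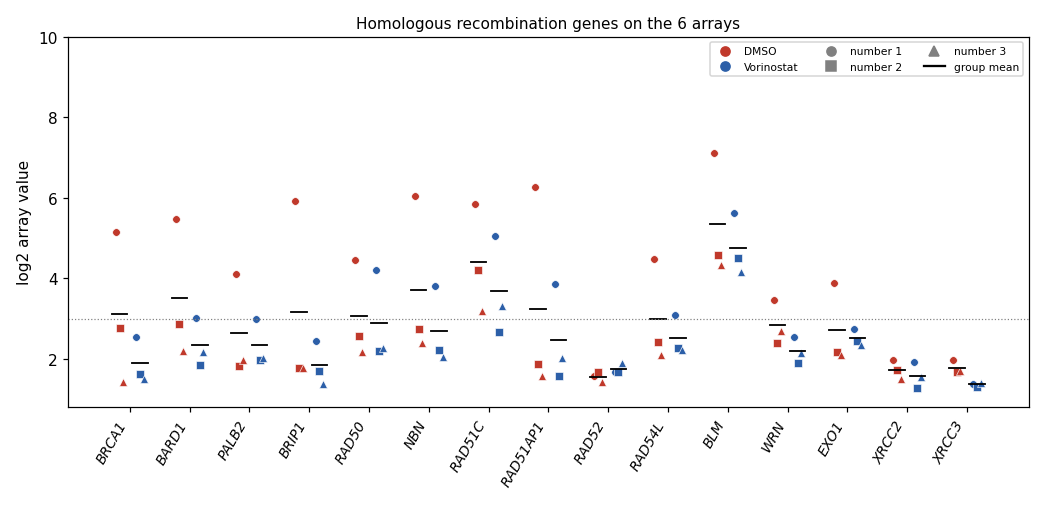
Log2 array values (vertical axis) of the 15 measured homologous recombination genes, DMSO in red and Vorinostat in blue, marker shape giving the replicate number, black bars the group means of n = 3 and the dotted line a log2 value of 3. The DMSO number 1 point of BRIP1 stands at 5.93 and its Vorinostat partner at 2.45.

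The other recombination genes were dim in both groups, with means under 3. RAD54L, a chromatin motor of strand exchange, differed by -1.39 in number 1, PALB2, the bridge between the breast cancer susceptibility proteins, by -1.12, and the nuclease EXO1 by -1.14. None of these 3 was lower by more than 0.16 in numbers 2 and 3. WRN, a helicase of the RECQ family, had log2 values of 3.45, 2.38 and 2.69 with DMSO and 2.54, 1.89 and 2.15 with Vorinostat, and its differences of -0.91, -0.49 and -0.54 were all negative. With number as a block, limma gave WRN an unadjusted p = 0.00701 and an adjusted p = 0.887. XRCC3, a recombinase paralogue, had log2 values of 1.96, 1.68 and 1.69 with DMSO and 1.38, 1.31 and 1.41 with Vorinostat. All 3 Vorinostat arrays lay below all 3 DMSO arrays for XRCC3 alone of the 45 members, against 1.95% of all genes. Its log2 fold change amounted to -0.41 (limma, standard error 0.115), with an unadjusted p = 0.0144 and an adjusted p = 1 from limma. RAD52, an annealing protein, was the 1 member with all Vorinostat arrays above, against 2.3% of all genes, with a log2 fold change of 0.19 and differences that rounded to 0.10, 0.00 and 0.46. The other RAD52 probe sets had log2 fold changes of -0.04, -0.08 and -0.1. On the probe sets with the highest mean, XRCC3 and RAD52 lay below 2 on every array, so the size of their difference is poorly measured. XRCC2, the last of the group, also stayed below 2 on every array.

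End joining genes had median differences of -0.41, -1.22 and 0.01 in numbers 1, 2 and 3 over 5 genes. XRCC5 and XRCC6 differed most in number 2, XRCC4 and LIG4 in number 1, and PRKDC about equally in both. XRCC5 and XRCC6 encode the Ku subunits that cap broken ends. XRCC5 had log2 values of 9.53, 6.59 and 5.36 with DMSO and 9.12, 3.69 and 5.15 with Vorinostat, with means of 7.16 ± 2.14 (SD, n = 3) in the DMSO group and 5.98 ± 2.81 (SD, n = 3) in the Vorinostat group. XRCC6 had 8.84, 6.41 and 5.97 with DMSO and 8.46, 4.57 and 6.45 with Vorinostat, with means of 7.07 ± 1.54 (SD, n = 3) in the DMSO group and 6.49 ± 1.94 (SD, n = 3) in the Vorinostat group. The Vorinostat number 2 array was the lowest for both genes. Their log2 fold changes were -1.17 (limma, standard error 1.75) and -0.58 (limma, standard error 1.23). A second XRCC5 probe set had differences of 0.02, -0.40 and -0.19, so the size of the difference in number 2 depended on the probe set.

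PRKDC, the kinase that Ku recruits, had log2 values of 7.51, 3.12 and 2.96 with DMSO and 6.39, 1.90 and 3.07 with Vorinostat. It was over 2-fold lower in numbers 1 and 2 and level in number 3, and a second probe set differed by -1.01, -0.08 and -0.16. XRCC4, which holds the ligase at the ends, differed by -0.98, 0.15 and 0.01, and LIG4, that ligase, by 0.55, -0.27 and -0.13. LIG4 reached at most 2.08 on any array. Number 2 was also where housekeeping genes were lower, 8 of 11 by over 2-fold. PGK1 is among those 8, and the study lists it as decreasing on these samples. Of the 7 members whose arrays of numbers 2 and 3 averaged at least 3, 5 were over 2-fold lower in number 2, against 50.2% of such genes, which is near the background for genes of this signal. The part of array signal in these differences was not tested.

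Of the 7 base excision and single-strand break repair genes, UNG was over 2-fold lower in numbers 1 and 2, and APEX1 and PARP1 in number 2. UNG, the glycosylase that removes uracil, had log2 values of 6.33, 3.36 and 2.89 with DMSO and 4.22, 2.25 and 2.52 with Vorinostat, with means of 4.20 ± 1.87 (SD, n = 3) in the DMSO group and 3.0 ± 1.07 (SD, n = 3) in the Vorinostat group. Each Vorinostat array was below its DMSO partner, with differences of -2.11, -1.11 and -0.37 in numbers 1, 2 and 3, although the groups overlapped. Over all arrays the log2 fold change amounted to -1.20 (limma, standard error 1.07), with an unadjusted p = 0.31, and with number as a block, limma gave an unadjusted p = 0.0281 and an adjusted p = 0.887.

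APEX1, the endonuclease that cuts at abasic sites, had log2 values of 9.24, 6.87 and 4.73 with DMSO and 9.05, 4.96 and 5.81 with Vorinostat. PARP1, which senses strand breaks and builds poly(ADP-ribose), had 5.75, 4.97 and 4.53 with DMSO and 6.04, 2.71 and 4.72 with Vorinostat. Both were level in number 1 and lower in number 2, with differences of -1.90 and -2.25, and APEX1 was higher in number 3 by 1.08. PARP2, a close relative of PARP1, differed by 0.06, 0.18 and -0.55 on the probe set with the highest mean. The 2 others of PARP2 differed by -1.06 and -2.33 in number 1. LIG3, XRCC1 and OGG1 (a ligase, its scaffold and the 8-oxoguanine glycosylase) differed by -0.64 to 0.29 in any number. Another pair of LIG3 probe sets, above 3 on the DMSO number 1 array, differed by -1.53, -0.03 and 0.25 and by -1.29, -0.07 and 0.13.

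**Figure D3:**
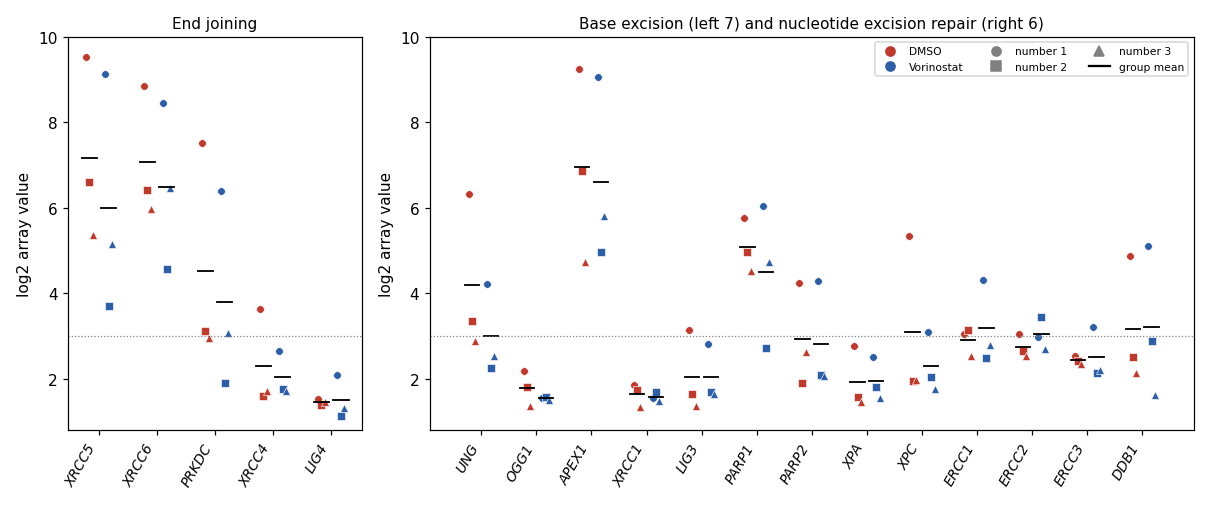
Log2 array values (vertical axis) of the end joining genes (left) and the base and nucleotide excision repair genes (right), DMSO in red and Vorinostat in blue, marker shape giving the replicate number, black bars the group means of n = 3 and the dotted line a log2 value of 3. The Vorinostat point of XPC and UNG is the lower one in number 1, and that of XRCC5, APEX1 and PARP1 in number 2.

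Among nucleotide excision repair genes XPC, which recognises helix distortion across the genome, had log2 values of 5.34, 1.94 and 1.96 with DMSO and 3.09, 2.04 and 1.75 with Vorinostat. The DMSO number 1 array stood above the other 5, and outside number 1 the gene did not exceed 2.04. DDB1, the adaptor of the ultraviolet damage ligase, had log2 values of 4.87, 2.51 and 2.14 with DMSO and 5.11, 2.88 and 1.61 with Vorinostat. ERCC1, a subunit of the nuclease that cuts on the 5′ side, had 3.05, 3.15 and 2.53 with DMSO and 4.30, 2.49 and 2.79 with Vorinostat, with the Vorinostat number 1 array the highest. Other ERCC1 probe sets differed by -0.07 and -0.47 in number 1. ERCC2, a helicase of TFIIH, had 3.04, 2.64 and 2.54 with DMSO and 2.98, 3.45 and 2.70 with Vorinostat. Over the 6 genes of this pathway the median log2 fold change was 0.06. The remaining ones, the TFIIH helicase ERCC3 and the damage verification protein XPA, differed by -0.27 to 0.66 in any number.

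FANCI and FANCL act together in the Fanconi anaemia pathway, FANCL as the ubiquitin ligase and FANCI as one of its substrates. FANCI had log2 values of 6.12, 2.34 and 3.55 with DMSO and 4.31, 2.88 and 2.81 with Vorinostat. FANCL had 5.40, 2.04 and 1.96 with DMSO and 3.89, 1.48 and 1.66 with Vorinostat. FANCL was lower in each number, while FANCI was higher in number 2, and a second FANCI probe set kept the sign of the first in each number, at -2.09, 0.39 and -0.24. FANCC and FANCG, of the core complex, reached at most 2.58 on any array. In mismatch repair, MSH6, which recognises single mismatches, had log2 values of 5.66, 2.33 and 1.71 with DMSO and 4.92, 1.66 and 1.57 with Vorinostat, each Vorinostat array below its partner, with differences of -0.74, -0.67 and -0.14. With number as a block, limma gave an unadjusted p = 0.0302 for MSH6 and an unadjusted p = 0.0428 for FANCL, each with an adjusted p = 0.887. The mean over all MSH6 probe sets had a log2 fold change of -0.01, and dimmer ones were higher in number 1, by 0.43 and 0.87. MSH3, which recognises larger loops, differed by 0.65, -0.45 and 0.13, and another MSH3 probe set by -1.50, -0.50 and 0.10.

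**Figure D4:**
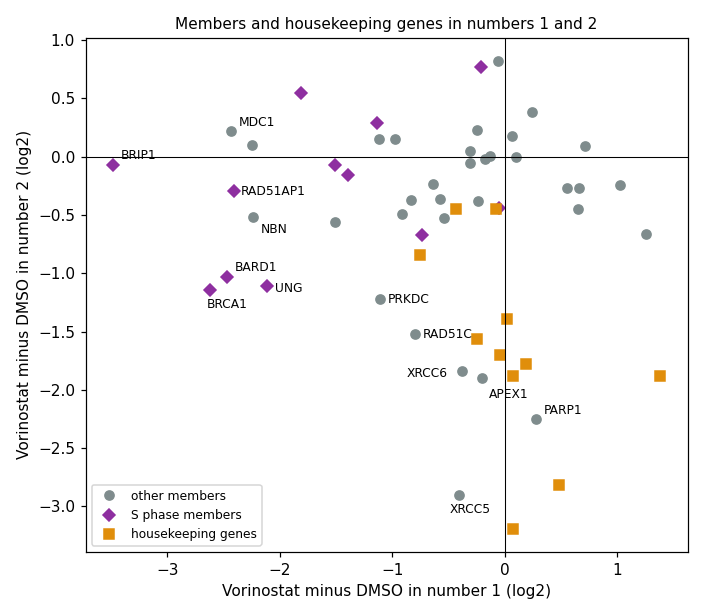
Difference of Vorinostat minus DMSO in number 1 (horizontal axis) against number 2 (vertical axis), both in log2 units, with 1 point per gene, for S phase members, other members and 11 housekeeping genes. BRIP1, MDC1 and RAD51AP1 lie far left near zero in number 2, and XRCC5, PARP1, XRCC6 and APEX1 lie low near zero in number 1, as do the housekeeping genes by their medians of 0.02 and -1.70.

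The promoters of members with lower values in number 1 were read for a shared E2F-type motif, GCGGGAA on either strand. The windows are those of RefSeq on GRCh38.p14, 250 bases before to 50 after a start site, and 40 of the 45 members had one or more. The motif was chosen after promoter sequences of members had been read, so its frequency is a description. Of the 12 members over 2-fold lower in number 1 that had a window 8 held it, as did 9 of the 28 other members, against 10.5% of 15843 protein-coding genes. Of the 11 S phase transcripts with a window it was found in 8. Genes with several windows had more chances to match. For illustration, the 150 bases before the start site are given 5′ to 3′ for RAD51AP1 (chr12:4538740-4538889, plus strand), BLM (chr15:90717196-90717345, plus strand) and XPC (chr3:14178602-14178751, minus strand), which were over 2-fold lower in number 1 and hold the motif, shown in capitals. APEX1 (chr14:20455076-20455225, plus strand), level in number 1, is given for contrast and holds no match in its window. Other members went the other way. MDC1, PALB2, EXO1 and UNG were over 2-fold lower in number 1 and hold no match. PARP1 and FANCC, with differences of 0.28 and -0.18 there, hold the motif.
RAD51AP1: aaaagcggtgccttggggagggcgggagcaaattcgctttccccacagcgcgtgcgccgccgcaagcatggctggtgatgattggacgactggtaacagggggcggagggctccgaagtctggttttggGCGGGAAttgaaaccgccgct
BLM: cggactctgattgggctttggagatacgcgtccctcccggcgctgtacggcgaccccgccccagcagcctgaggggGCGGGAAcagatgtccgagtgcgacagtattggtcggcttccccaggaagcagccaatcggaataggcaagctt
XPC: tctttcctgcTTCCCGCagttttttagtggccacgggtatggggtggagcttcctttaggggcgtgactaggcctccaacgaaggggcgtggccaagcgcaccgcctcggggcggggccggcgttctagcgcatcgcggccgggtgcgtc
APEX1: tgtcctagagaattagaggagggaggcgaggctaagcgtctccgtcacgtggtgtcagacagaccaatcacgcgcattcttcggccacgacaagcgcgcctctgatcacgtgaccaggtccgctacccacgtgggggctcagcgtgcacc

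Within the bases printed, the motif begins 21 bases before the start site in RAD51AP1, 74 before it in BLM and 140 before it in XPC, and the windows of BLM and XPC hold a further match outside them. A match of letters is not evidence of binding.

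Several members had more than 1 probe set, and these did not always have the same sign. Of the 45, 26 had several, and 103 probe sets named a member in all. Apart from those with the highest mean, 11 probe sets of 9 genes averaged at least 3 on the number 1 arrays, and 6 of these had the same sign in number 1 as the one with the highest mean. The others belonged to XRCC5, PARP2 and ERCC1. Dimmer probe sets of ATM and MSH3 also had the opposite sign there. The study lists BRCA1, NBN, MDC1, EXO1 and UNG among its decreasing genes on these samples, so their direction is not independent evidence. None of these genes passed the study's threshold here in limma without the block. Their log2 fold changes ran from -1.23 for BRCA1 (unadjusted p = 0.259 from limma) to -0.21 for EXO1 (unadjusted p = 0.707 from limma). EXO1 was higher in numbers 2 and 3, by 0.29 and 0.24.

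Other repair genes, from a list of 111, were counted in the same way. The list includes GEN1, which the study names among its decreasing genes on these samples. Of the 104 measured, 72 had a negative log2 fold change, against 53.1% of all genes, with a median of -0.17. At an unadjusted p under 0.05 from limma 1 was lower, against 0.389% of all genes, and 0 were higher, against 0.602%. With the block 6 were lower, against 3.12% of all genes, and 2 higher, against 2.25%. In number 1, 18 of the 104 were over 2-fold lower, against 5.56% of all genes, and of the 54 with number 1 arrays averaging at least 3, 15 were, against 17.4% of such genes. LIG1, the ligase of replication and long-patch base excision, was the 1 lower gene without the block, with log2 values of 3.0, 2.08 and 2.09 with DMSO and 1.57, 1.51 and 1.73 with Vorinostat. The Vorinostat arrays all lay below the DMSO arrays, and the log2 fold change amounted to -0.79 (limma, standard error 0.278), with an unadjusted p = 0.0332 and an adjusted p = 1 from limma.

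Next to LIG1 in order of p were NEIL2, a glycosylase of oxidised bases, whose log2 fold change was -0.31 (limma, standard error 0.158), and ERCC8, of transcription-coupled repair, with -0.22 (limma, standard error 0.113). On the positive side they were POLK, a translesion polymerase, with 0.28 (limma, standard error 0.129), FANCF, of the Fanconi core complex, with 0.24 (limma, standard error 0.124), and UIMC1, which brings BRCA1 to ubiquitin at breaks, with 0.78 (limma, standard error 0.447). None of these 5 passed an unadjusted p under 0.05. Those lower with the block were POLH and POLI, translesion polymerases, MMS19, an iron-sulfur assembly factor, FEN1, the flap endonuclease, MBD4, a glycosylase, and LIG1. Their unadjusted p from limma ran from 0.00593 for POLH to 0.0489 for MBD4, each with an adjusted p = 0.887, and their log2 fold changes from -0.79 for LIG1 to -0.46 for MBD4. With the block, BABAM2 and BABAM1, further subunits of the complex that holds UIMC1, were higher at an unadjusted p under 0.05 from limma (unadjusted p = 0.0247 and unadjusted p = 0.0475), each with an adjusted p = 0.887. BABAM2 had log2 values of 5.71, 2.29 and 1.99 with DMSO and 5.94, 3.90 and 3.64 with Vorinostat, and its larger differences lay in numbers 2 and 3. Other subunits of that complex did not share this, ABRAXAS1 differing by -0.45, 0.00 and -0.12 and BRCC3 by -0.30, -0.52 and 1.13.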

How the data were processed

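RNA of OCI-AML3 cells, 3 samples with DMSO and 3 with 1 μM Vorinostat for 24 h, was hybridised to HG-U133 Plus 2.0 arrays of Affymetrix. The deposited values are 1 log2 intensity per probe set and array, made by the authors in Partek Genomics Suite. MAS5 and RMA are both listed in the submitters' processing notes, and their versions and roles are not given in the sources used here. The log2 scale was read from the values, which ran from 0.868 to 13.76. The columns did not share 1 distribution, so they were not quantile normalised, and signal differed between arrays.

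Without the 62 control probe sets, 54613 were fitted with limma 3.58.1 in R 4.3.3 (lmFit and eBayes), with Benjamini-Hochberg adjustment over all of them. A gene was represented by the probe set of highest average signal among 41091 naming 1 gene in the platform annotation, while 1801 named several and 11721 none. A log2 value of 3 marked dim probe sets. Every member is named, with array values for those whose higher group mean reached 3, and fold changes were recomputed under alternatives where they were at least 0.5 log2 units. Up to 3 other repair genes per direction were named by smallest p, with any at an unadjusted p under 0.05. The members and lists were chosen with earlier results of these data known.

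The replicate numbers come from the sample labels. The numbers were taken as pairs from these labels. Deviations from the group means of same-numbered arrays correlated at 0.874, 0.599 and 0.672 across probe sets. Arrays of numbers 2 and 3 correlated about as much when crossed (0.695 and 0.594), so the correlations cannot decide the pairing of these numbers. The alternatives were the replicate block, quantile normalisation, a filter on dim probe sets, the mean of all probe sets of a gene, the methods' t-test and leaving out arrays. An exact permutation test of single values could not go below p = 0.1 here and was not used. The fit was tested on simulated data. The number of arrays limits the precision.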

Additional observations from a re-analysis of the deposited data

How the results depend on the processing

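The median log2 fold change of the members, -0.27, ran from -0.79 without Vorinostat replicate 1 to 0.32 without DMSO replicate 1, was -0.62 without DMSO replicate 3 and -0.12 without both number 1 arrays, and was -0.67 over the 11 members that passed the filter on dim probe sets. Members lower at an unadjusted p under 0.05 from limma numbered 5 with the replicate block, 6 after quantile normalisation, 0 with the dim filter, 1 with the methods' t-test, and 0 to 3 when arrays were left out, against 1 as reported. Those without both arrays of number 1 were 3, without those of number 2 or number 3 they were 0, and without DMSO replicate 2 or DMSO replicate 3 they were 2. Members over 2-fold with such a p numbered 1 with the block and 1 after quantile normalisation, against 0. Lower values in each number were held by 3 members with the dim filter and by 12 to 24 when a number was left out, against 10, with 24 reached without number 3. Higher values in each number were held by 3 after quantile normalisation, 0 with the dim filter and 4 to 8 without a number, against 1. Leaving out a number eases both rules and could only keep or raise these counts. The dim filter could only keep or lower them. All Vorinostat arrays lay below all DMSO arrays in 5 members after quantile normalisation and 0 with the dim filter, and above them in 0 under quantile normalisation, the mean of all probe sets and the dim filter. The block changed no other count by over 1.5 times. Members higher at an unadjusted p under 0.05, and those at an adjusted p under 0.05, numbered 0 under every alternative run, the methods' t-test included. Apart from the block, shares of all genes were not counted under these alternatives, so a changed count may not be particular to the members.

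Of the 18 members with a fold change of at least 0.5 log2 units, 12 changed sign without DMSO replicate 1, 2 without both number 1 arrays, and 13 changed sign under at least 1 setting that left out arrays. Their ranges over the settings that left out arrays were -1.48 to 0.33 for MDC1, -2.02 to 0.07 for BRIP1, -1.70 to 0.13 for NBN, -1.59 to 0.75 for RAD51AP1, -1.09 to 0.30 for BLM, -2.74 to 0.01 for XRCC5, -1.56 to 0.38 for XRCC6, -2.05 to 0.74 for PRKDC, -1.50 to 0.39 for FANCI, -1.56 to 0.35 for FANCL, -1.62 to 0.69 for MSH6, -1.37 to 0.30 for PARP1 and -1.36 to 0.34 for XPC. BRCA1, BARD1, RAD51C, WRN and UNG kept a negative sign under every alternative run, but without DMSO replicate 1 their values were -0.22, -0.19, -0.01, -0.34 and -0.13, against -1.23, -1.17, -0.73, -0.65 and -1.20. Over all alternatives, 191 values of these 18 genes kept sign and side of the threshold, 13 passed an unadjusted p under 0.05 only under the alternative, and 21 changed sign. The cause was not tested.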
